A study of Caenorhabditis elegans with 4 samples.

Results

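Fatty acid desaturases put double bonds into fatty acids and elongases lengthen them. In the nematode Caenorhabditis elegans these enzymes build nearly the whole range of unsaturated, polyunsaturated and branched-chain fatty acids from simple precursors. The genes described here are the 7 desaturase genes fat-1 to fat-7 and the 3 elongase genes elo-1, elo-2 and elo-5. These 10 genes were chosen by name from the 20392 genes of the count table, and all 10 passed the filter on low counts that left 15008 genes for testing. Of the 10 genes, 8 lie on chromosome IV, while fat-5 and fat-7 lie on chromosome V.

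RNA was sequenced from whole first-stage (L1) larvae in 4 libraries. The wild type group (strain N2) was fed bacteria with the empty RNAi vector L4440, and the other group (strain GW1183, genotype met-1-/-) was fed bacteria for RNAi against mes-4. MET-1 and MES-4 are methyltransferases for lysine 36 of histone H3 (H3K36), and the series asked how depleting both changes gene expression. Each group had 2 libraries, described as independent biological replicates. The groups are called N2 and GW1183 below, and all GW1183 larvae received mes-4 RNAi. They differ in strain, mutation and RNAi target at once, and the parts of these cannot be told apart. Parents were raised on RNAi bacteria for 60 to 65 h at 20 °C, and the embryos hatched in M9 buffer without food for 18 h. The larvae of both groups were then fed the matching RNAi bacteria for 2 h 30 min before lysis. Transcripts of fatty acid synthesis genes are known to respond to feeding, and all values below come from recently refed larvae.

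The series' background values are these. Library totals were 29081819 to 35106597 counts. CPM below are read counts scaled to library size, with a TMM factor that corrects for differences in composition between libraries. The targeted gene met-1 was at 168.4 ± 4.96 CPM in N2 and at 113.1 ± 2.47 CPM in GW1183 larvae (SD, n = 2), and mes-4 at 35.8 ± 2.18 and 27.3 ± 1.48 CPM. Without overlap both were lower in the second group, as were 22.2% of all tested genes. DESeq2 called met-1 (adjusted p = 0.00390) but not mes-4 (adjusted p = 0.337). With any 1 library left out, the met-1 call ended (DESeq2 adjusted p 0.322 to 0.500). Of the 15008 tested genes, edgeR's quasi-likelihood test called 0 at an adjusted p under 0.05 (0% of genes), counted 2185 at an unadjusted p under 0.05 (14.6%), and DESeq2 called 655 (4.36%).

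The pathway can be followed from its first step. FAT-5, FAT-6 and FAT-7 place the first double bond, FAT-5 acting mainly on palmitoyl-CoA and FAT-6 and FAT-7 on stearoyl-CoA, which yields oleic acid. FAT-2 turns oleic acid into linoleic acid. FAT-1 is the omega-3 desaturase, an enzyme mammals lack. FAT-3, ELO-1 and FAT-4 then act in turn to give the long polyunsaturated fatty acids of membranes and signalling lipids. ELO-2 lengthens palmitic acid, and ELO-5 makes branched-chain fatty acids that larvae need to grow past the first stage. Much of this synthesis takes place in the intestine.

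Polyunsaturated fatty acid desaturase transcripts (fat-1 to fat-4) were somewhat lower in GW1183 larvae, with mean levels that differed by -21.2% to -9.99%, and none of them passed a test adjusted over all genes. The other 6 genes overlapped between the groups. On the log2 scale fat-2 (-0.15) and fat-3 (-0.17) changed less than the median size over all tested genes (0.23). The changes of fat-1 (-0.32) and fat-4 (-0.34) were larger than that median, but fat-1 was at -0.13 without GW1183 replicate 1. No member was called by edgeR or by DESeq2 (0 of 10 with each), beside 0% and 4.36% of all tested genes. At an unadjusted p under 0.05 edgeR counted 1 of 10, fat-4, beside 14.6% of all tested genes. That 1 was lower in GW1183 larvae, beside 6.82% of all tested genes, and 0 of 10 were higher, beside 7.74%. In RNA from whole larvae, fewer cells of a type and less RNA per cell cannot be told apart.

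**Figure D1:**
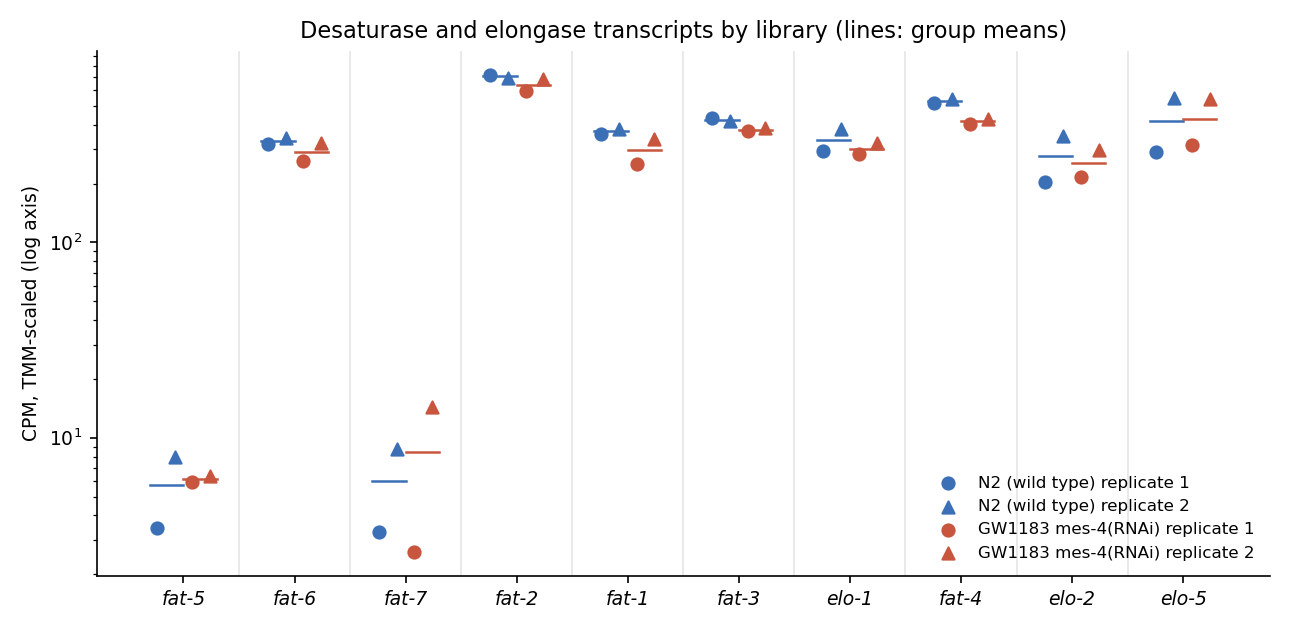
CPM of the 10 genes in each of the 4 libraries on a log axis, with blue for N2, red for GW1183, circles for replicate 1, triangles for replicate 2 and short lines for group means. The red points of fat-1, fat-2, fat-3 and fat-4 lie below the blue ones, while the circles of fat-5, fat-6, fat-7, elo-1, elo-2 and elo-5 lie below their triangles in both groups and across them.

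fat-4, the last desaturase before arachidonic and eicosapentaenoic acid, was at 519.6 and 541.5 CPM in N2 replicates 1 and 2 and at 405.1 and 430.9 CPM in GW1183 replicates 1 and 2. Both GW1183 libraries were below both N2 libraries. The means were 530.5 ± 15.5 and 418.0 ± 18.3 CPM (SD, n = 2), a difference of -21.2%. The log2 fold change was -0.34 (SE 0.11, 95% interval -0.63 to -0.06), with an adjusted p of 0.271 in edgeR and 0.200 in DESeq2. In the same order of libraries, its neighbour fat-3, whose product ELO-1 lengthens, was at 434.9, 416.8, 372.4 and 384.3 CPM. Its groups did not overlap, and its log2 fold change was -0.17 (SE 0.11, edgeR adjusted p = 0.555). The 2 genes lie next to each other on the same strand, fat-4 before fat-3.

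fat-1 was at 360.0 and 380.6 CPM in N2 and at 252.9 and 339.1 CPM in GW1183 larvae. The lowest value was that of GW1183 replicate 1, and its replicate 2 lay close under N2 replicate 1. The log2 fold change was -0.32 (SE 0.17, edgeR adjusted p = 0.473). It was -0.13 without GW1183 replicate 1 and -0.55 without GW1183 replicate 2. Its next gene on the same strand, fat-2, was the most abundant of the 10 by CPM, at 723.4, 696.0, 593.0 and 684.6 CPM in the same order. The groups of fat-2 were separated by a narrow gap, and with scaling to the library total alone they overlapped. Its log2 fold change was -0.15 (SE 0.13, edgeR adjusted p = 0.666), and it was -0.052 without GW1183 replicate 1 and -0.26 without GW1183 replicate 2.

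Groups that did not overlap were thus seen for 4 of 10 members, beside 44.9% of all tested genes. In all 4 the GW1183 values were the lower ones, beside 22.2% of all tested genes, and in 0 of 10 the higher ones, beside 22.7%. With scaling to the library total, the count of members lower without overlap was 3 of 10, beside 18.3% of all tested genes. The log2 fold change was below 0 for 7 of 10 genes, beside 48.5% of all tested genes. Its median over the 10 genes was -0.15, and that of all tested genes was 0.01. The members were chosen as a pathway, so these counts and medians describe the list and test nothing. With the replicate number as a block, a pairing that no label gives, edgeR called 2 of 10 (fat-1 and fat-4) beside 20.3% of all tested genes, and DESeq2 called 1 of 10 (fat-4) beside 9.24%.

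**Figure D2:**
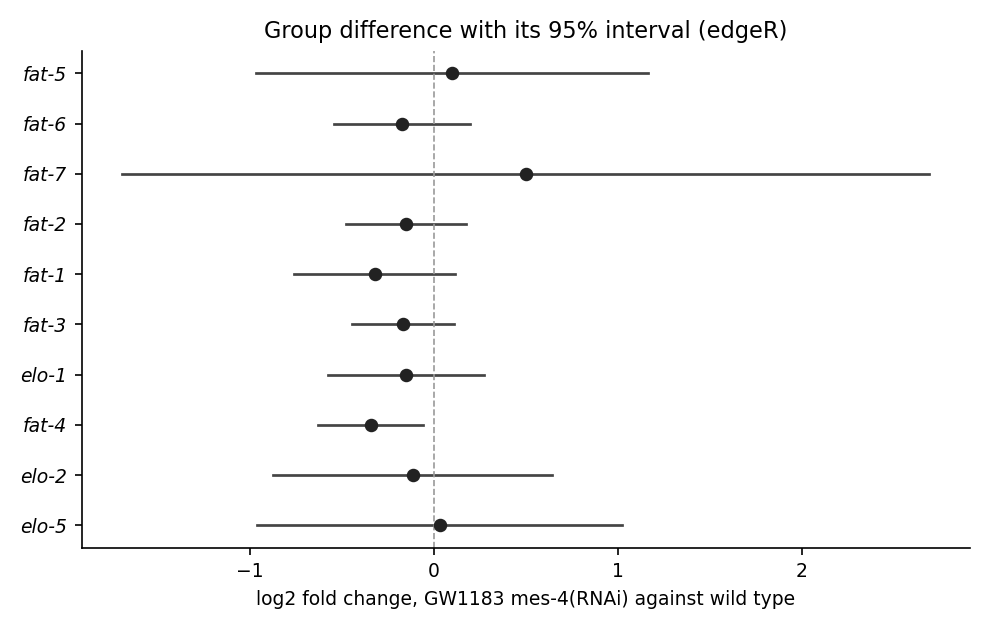
Log2 fold change of GW1183 against N2 for each gene, as points with 95% intervals from edgeR before adjustment for the number of genes tested. The interval of fat-4 (-0.63 to -0.06) lies below 0, and the other 9 intervals include 0, the widest being that of fat-7.

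The sum of the intestinal markers was also lower in GW1183 larvae. The summed level of 10 intestinal markers was 5935 and 5470 CPM in N2 and 5206 and 5229 CPM in GW1183 larvae, a difference of the means of -8.50%. On the log2 scale 9 of the 10 were below 0, beside 48.5% of all tested genes, with a median of -0.11, and none was at 0 counts. Without overlap 3 were lower, beside 22.2% of all tested genes, and 1 was higher, beside 22.7%. Among abundant markers, named for their levels, the log2 fold change was -0.34 for act-5 and -0.07 for asp-1. Divided by the intestinal marker sum, fat-4 was at 8.75% and 9.90% of it in N2 and at 7.78% and 8.24% in GW1183 larvae. On that scale fat-4 kept groups that did not overlap, and its means differed by -14.1%. fat-1, fat-2 and fat-3 overlapped on that scale, with mean changes of -12.9%, -1.73% and -2.98%. The share of all tested genes without overlap on that scale was not computed. The marker sum rests largely on asp-1, at 2819 and 2605 CPM in N2 and at 2506 and 2660 CPM in GW1183 larvae. The marker act-5 had the same log2 fold change as fat-4 (-0.34 for both). The marker sums of neurons (2173 to 2196 CPM in N2, 2097 to 2210 CPM in GW1183 larvae) and of body wall muscle (6761 to 8496 and 7770 to 10702 CPM) overlapped. Of the 8 muscle markers 8 were above 0 on the log2 scale, with a median of 0.35, and the means of their sum differed by 21.1%. Without overlap 2 of the 8 were higher, beside 22.7% of all tested genes, and 0 were lower, beside 22.2%. The muscle myosin gene myo-3 was the called marker, at 281.3 and 418.8 CPM in N2 and at 603.3 and 1073 CPM in GW1183 larvae (log2 fold change 1.26, DESeq2 adjusted p = 0.00263, edgeR adjusted p = 0.201). Its DESeq2 call ended without N2 replicate 1 (adjusted p = 0.0980) or GW1183 replicate 2 (0.181). The part of tissue makeup in the desaturase values was not tested.

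Among the enzymes of the first double bond, fat-6 was by far the most abundant. fat-6 was at 317.6 and 341.4 CPM in N2 and at 261.1 and 322.6 CPM in GW1183 larvae, with overlap and a log2 fold change of -0.18 (SE 0.15, edgeR adjusted p = 0.657). That value was -0.031 without GW1183 replicate 1, -0.12 without N2 replicate 2 and -0.33 without GW1183 replicate 2. fat-7 was at 3.30 and 8.74 CPM in N2 and at 2.60 and 14.4 CPM in GW1183 larvae. In both groups replicate 2 was the higher one, and the 2 lowest values came from different groups. fat-7 rested on 110, 274, 79 and 500 counts in these libraries, so counting error is small beside these differences.

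fat-5 was at 3.45 and 8.01 CPM in N2 and at 5.90 and 6.34 CPM in GW1183 larvae, so that both GW1183 values lay between the N2 values. For fat-5 and fat-7 no direction between the groups held. The log2 fold change of fat-7 was 0.50 (SE 0.86, 95% interval -1.70 to 2.70), and without single libraries it ranged from -1.203 (GW1183 replicate 2 left out) to 1.37 (N2 replicate 2 left out), turning also without N2 replicate 1 (-0.04). That of fat-5 was 0.10 (SE 0.42), and without single libraries it ranged from -0.39 (N2 replicate 1) to 0.83 (N2 replicate 2). FAT-6 and FAT-7 are close relatives, so reads of the rarer fat-7 depend on how reads shared by both genes were counted, which is not given in the sources used here. fat-5 overlaps the potassium channel gene twk-42 on the other strand in assembly WBcel235, and reads of the 2 genes cannot be told apart without strand.

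Per kilobase of gene model, fat-6 made up 88.0% to 96.2% of the summed level of fat-5, fat-6 and fat-7 in the 4 libraries. fat-7 made up 2.52% and 5.90% of it in N2 and 2.39% and 9.87% in GW1183 larvae, the higher value being that of replicate 2 in each group. The fat-5 share was 1.26% to 2.60%. These shares depended on the deposited lengths of fat-5 and fat-6, which exceed their exon bases in WBcel235. With WBcel235 exon lengths, a choice made after the data were seen, the fat-7 share was 1.05% and 2.52% in N2 and 0.999% and 4.32% in GW1183 larvae, and fat-6 made up 93.7% to 97.8%. The counts of fat-5 and fat-6 may include reads from bases outside those exons, and these shares carry that uncertainty.

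Elongase transcripts differed more between replicates than between groups. elo-5 was at 288.9 and 548.9 CPM in N2 and at 316.8 and 539.7 CPM in GW1183 larvae. The 2 values of replicate 1 and the 2 values of replicate 2 each lay close together across the groups. Its log2 fold change between groups was 0.03 (SE 0.39, 95% interval -0.96 to 1.02). Without single libraries it ranged from -0.40 (GW1183 replicate 2) to 0.57 (N2 replicate 2), turning also without N2 replicate 1 (-0.36). In WBcel235 elo-5 overlaps the coding gene F41H10.3 on the other strand.

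elo-2 was at 205.0 and 350.9 CPM in N2 and at 216.8 and 296.0 CPM in GW1183 larvae, and replicate 2 was again higher in both groups. Its log2 fold change was -0.12 (SE 0.30), positive without N2 replicate 2 (0.32) or GW1183 replicate 1 (0.09). elo-1, which lengthens the product of FAT-3, was at 292.6 and 378.8 CPM in N2 and at 283.7 and 321.1 CPM in GW1183 larvae. The groups of elo-1 overlapped, with a log2 fold change of -0.15 (SE 0.17), which was 0.050 without N2 replicate 2.

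Replicate 2 was above replicate 1 in both groups for 8 of the 10 genes, beside 37.7% of all tested genes, and replicate 1 was above replicate 2 in both groups for 0 of 10, beside 35.6%. The exceptions, fat-2 and fat-3, differed in sign between the groups. At 1.5-fold or more in both groups, replicate 2 was higher for 2 of 10 genes, fat-7 and elo-5, beside 1.71% of all tested genes. The 1.5-fold limit was chosen after the values were seen. fat-7 was 2.65-fold higher in replicate 2 than in replicate 1 in N2 and 5.51-fold higher in GW1183 larvae. For elo-5 these ratios were 1.90 and 1.70, for elo-2 they were 1.71 and 1.37, and for fat-5 they were 2.32 and 1.07. In 5 of the 10 genes both replicate differences were larger than the group difference, beside 39.1% of all tested genes. No label says that a replicate number marks a shared day or batch.

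**Figure D3:**
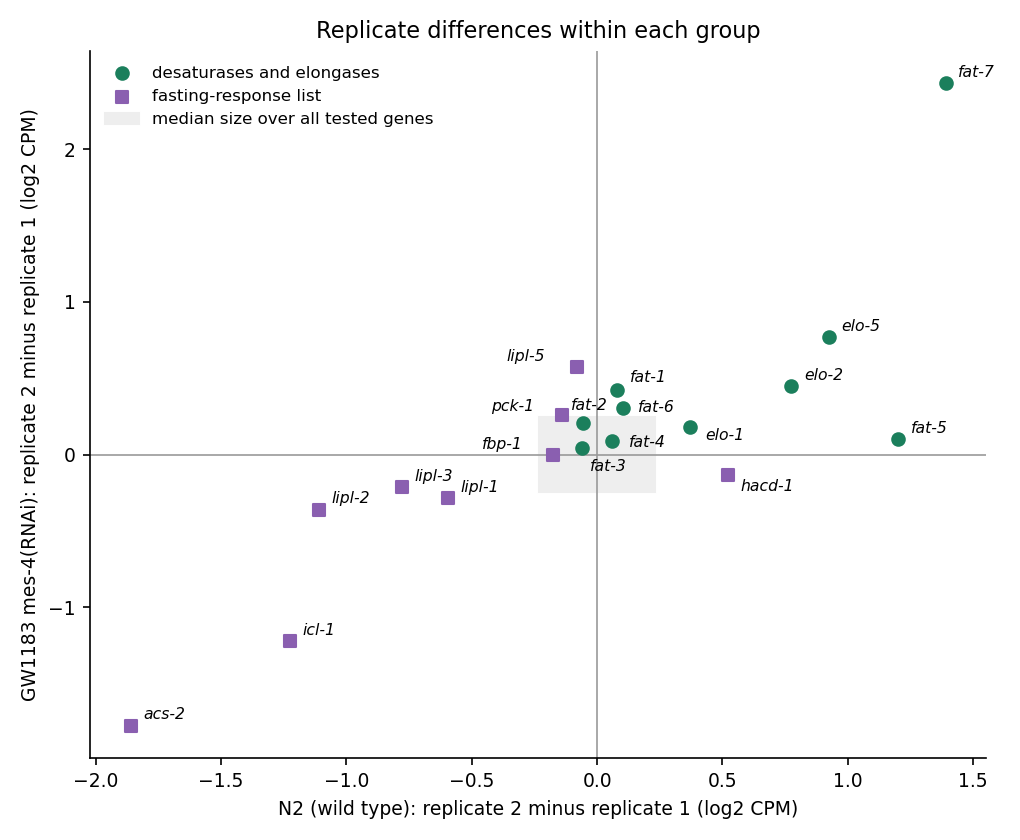
Replicate 2 minus replicate 1 on the log2 CPM scale in N2 (horizontal) and in GW1183 larvae (vertical), for the 10 genes (green circles) and the tested genes of the fasting-response list (purple squares). The grey box spans the median size over all tested genes (0.23 and 0.25); fat-7, elo-5, elo-2, elo-1 and fat-5 lie to the right of it, as does hacd-1, and acs-2, icl-1, lipl-1 and lipl-2 lie to its lower left.

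Most, but not all, tested genes known to respond to fasting showed the opposite order of replicates. Of 11 listed genes 9 were tested, and replicate 1 was above replicate 2 in both groups for 6 of them, beside 35.6% of all tested genes, while replicate 2 was above for 0. In the other 3, hacd-1, lipl-5 and pck-1, the order of replicates differed between the groups. Between the groups, 8 of the 9 were above 0 in GW1183 larvae with a median log2 fold change of 0.45, and 3 were higher and 0 lower without overlap, beside 22.7% and 22.2% of all tested genes. Among the 6, fbp-1 differed in GW1183 larvae only from 159.0 to 158.8 CPM. acs-2, an acyl-CoA synthetase gene induced by fasting, was at 63.1 and 17.4 CPM in N2 and at 143.6 and 41.9 CPM in GW1183 larvae, 3.64-fold and 3.43-fold higher in replicate 1. icl-1, the glyoxylate cycle gene, was at 1216 and 519.9 CPM and at 1659 and 711.2 CPM, 2.34-fold and 2.33-fold higher in replicate 1. Both genes are named because of these values. Their groups overlapped, with log2 fold changes of 1.203 (SE 0.80) and 0.45 (SE 0.55). Within replicate numbers 1 and 2, GW1183 larvae were 2.28-fold and 2.41-fold above N2 for acs-2 and 1.36-fold and 1.37-fold for icl-1. Neither gene was called without a block (edgeR adjusted p = 0.570 and 0.780, DESeq2 adjusted p = 0.862 and 0.970). With the replicate number as a block, edgeR called both (adjusted p = 0.000135 and 0.0112), beside 20.3% of all tested genes. DESeq2 then also called both (adjusted p = 5.24e-17 and 0.000405), beside 9.24%. The block removes the replicate difference for which these genes were named, under a pairing that no label gives, so these block calls test nothing. The value for acs-2 was 0.06 without GW1183 replicate 1 and 2.42 without N2 replicate 1, and that for icl-1 turned without N2 replicate 2 (-0.03) or GW1183 replicate 1 (-0.29).

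Other markers also differed by replicate number. Of 9 tested hypodermal markers, 5 were higher in replicate 1 in both groups, beside 35.6% of all tested genes. The other 4 were higher in replicate 2 in both groups, beside 37.7%. At 1.5-fold or more in both groups, 4 were higher in replicate 1, beside 7.67% of all tested genes, and 0 in replicate 2, beside 1.71%. The 4 that were higher in replicate 2 were the transcription factor genes elt-1, elt-3, lin-26 and nhr-23, named after their values were seen. The cuticle collagen gene sqt-3, an example chosen for its values, was at 49.6 and 10.6 CPM in N2 and at 80.9 and 7.52 CPM in GW1183 larvae. The summed hypodermal markers were 173.7 and 159.9 CPM in N2 and 219.2 and 149.6 CPM in GW1183 larvae. The tenth marker, rol-6, was at 0 counts in N2 replicate 2 and at most 0.13 CPM elsewhere. Body wall muscle markers were higher in replicate 2 in both groups for 8 of 8 genes, beside 37.7% of all tested genes. Intestinal markers were higher in replicate 1 in both groups for 6 of 10, beside 35.6%, and in replicate 2 for 2 of 10, beside 37.7%. The part of developmental timing, feeding and tissue makeup in the replicate differences of the desaturase and elongase genes was not tested.

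Levels of different genes were compared per kilobase of gene model, as CPM per kilobase averaged over the 4 libraries. fat-2 was highest at 528.0, followed by elo-5 (440.8), fat-4 (299.6), elo-1 (294.3), fat-3 (269.7), elo-2 (255.2) and fat-1 (239.7). fat-6 followed at 109.8, and fat-7 (6.45) and fat-5 (2.54) were lowest. Between neighbours in this order the ranges over libraries overlapped, except between fat-1 (181.9 to 273.8) and fat-6 (92.3 to 120.7) and between fat-6 and fat-7 (2.32 to 12.8). The place of fat-6 depended on its length. The deposited lengths of fat-6 and fat-5 (2829 and 2335 bases) were 2.43 and 2.12 times their exon bases in WBcel235 (1166 and 1104), while for the other 8 genes the ratio was 0.98 to 1.04. With the WBcel235 length fat-6 came to 266.4 and lay among the other abundant genes, and fat-5 came to 5.37. The counts of fat-6 and fat-5 may include reads from bases outside these exons, in which case these values are too high.

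**Figure D4:**
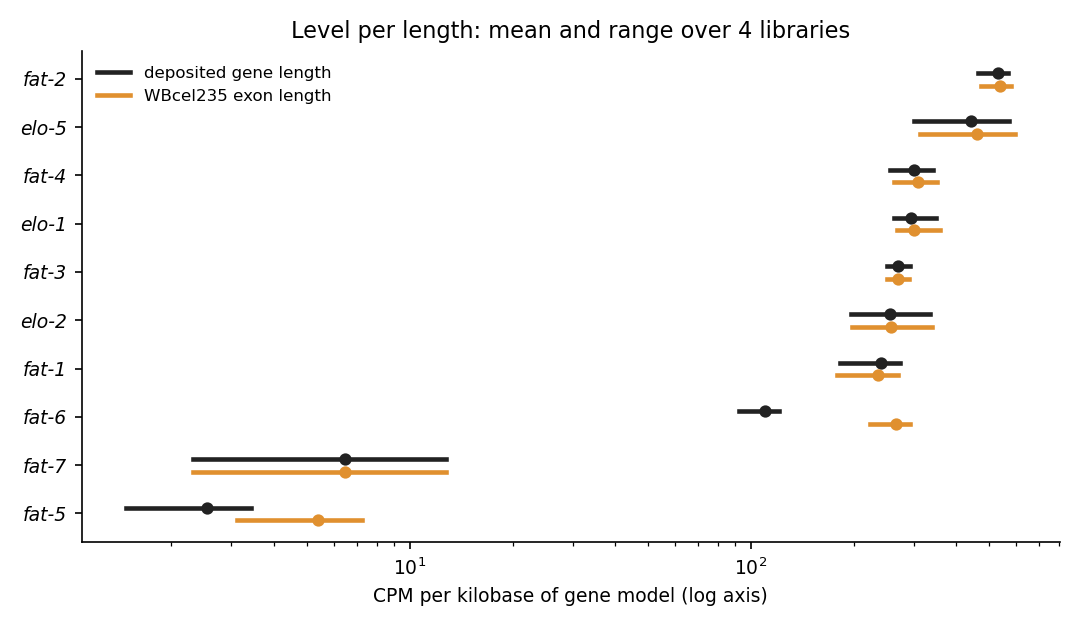
CPM per kilobase for each gene on a log axis, with the mean as a point and the range over the 4 libraries as a line. Black uses the deposited gene length and orange the WBcel235 exon length, with the same counts for both. fat-6 moves from 109.8 to 266.4 and fat-5 from 2.54 to 5.37, while the other 8 genes change by the length ratios of 0.98 to 1.04.

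The other elongase genes showed 0 calls with either test among 5 tested. elo-3 was at 124.8 ± 21.8 and 109.0 ± 10.2 CPM (SD, n = 2) in N2 and GW1183 larvae, and elo-4 at 1.04 ± 0.43 and 1.54 ± 0.67 CPM. elo-3 and elo-4 overlap the coding genes gstk-2 and ufc-1 on the other strand in WBcel235, so their counts carry the same uncertainty. elo-6, known to act with elo-5 on branched-chain fatty acids and named after its values were seen, was at 317.4 and 582.5 CPM in N2 and at 335.3 and 394.5 CPM in GW1183 larvae. Replicate 2 of elo-6 was higher in both groups, as for elo-5. elo-7, the next gene after elo-1 on the same strand, had 0 counts in 3 libraries and 1 count in GW1183 replicate 2, so it was not tested.

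Enzymes that work with elongases and desaturases were likewise uncalled. Among 4 elongation partners, art-1, an enoyl reductase of the elongation cycle, was at 152.3 ± 8.25 and 136.1 ± 1.87 CPM (log2 fold change -0.16). acs-1, which activates branched-chain fatty acids, was at 89.8, 156.5, 120.3 and 141.1 CPM in the order of libraries used above, with overlap. Among 4 genes for electron supply to desaturases, hpo-19, a cytochrome b5 reductase gene, was at 144.8 ± 15.98 and 163.7 ± 26.7 CPM (log2 fold change 0.18), and T05H4.4 at 2.89 ± 0.52 and 2.59 ± 0.16 CPM. Of 9 tested regulators of fatty acid synthesis, 0 were called, and without overlap 1 was higher, beside 22.7% of all tested genes, and 1 lower, beside 22.2%. These were the nuclear hormone receptor genes nhr-13 (6.72 ± 0.06 and 8.95 ± 0.68 CPM, log2 fold change 0.41, edgeR adjusted p = 0.377) and nhr-80 (38.0 ± 0.52 and 33.2 ± 3.09 CPM, -0.19, edgeR adjusted p = 0.576). Both are known to act on fat-5, fat-6 and fat-7. The main activator gene of the pathway, sbp-1, the worm homologue of SREBP, had a log2 fold change of -0.02 (SE 0.11, named outside the rule for its role).

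Of 9 genes for membrane fluidity and phosphatidylcholine synthesis, 7 were below 0 and 0 were called, with a median log2 fold change of -0.27. In this list 6 genes were lower without overlap, beside 22.2% of all tested genes, and 1 was higher, beside 22.7%. paqr-2, a membrane fluidity sensor gene that acts upstream of desaturases, was at 56.4 and 55.8 CPM in N2 and at 43.9 and 46.4 CPM in GW1183 larvae, with a log2 fold change of -0.31 (SE 0.11) and an edgeR adjusted p of 0.310. sams-1, which makes the methyl donor for phosphatidylcholine, was at 654.0 and 836.5 CPM and at 494.2 and 620.7 CPM, with a log2 fold change of -0.42 (SE 0.19, edgeR adjusted p = 0.402).

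Calls near the pathway were made in fatty acid supply and breakdown, by DESeq2 and not by edgeR. acly-2, an ATP citrate lyase gene that supplies acetyl-CoA for synthesis, was at 47.2 and 48.6 CPM in N2 and at 25.1 and 26.1 CPM in GW1183 larvae. It fell by 0.90 on the log2 scale (SE 0.12), with an adjusted p of 2.25e-05 in DESeq2 and 0.0725 in edgeR. Of 5 genes of de novo synthesis it was the 1 that DESeq2 called lower, beside 1.92% of all tested genes. The other 4 were uncalled, among them its relative acly-1 (178.7 ± 12.3 and 184.2 ± 4.43 CPM). With any 1 library left out the acly-2 call ended (DESeq2 adjusted p 0.0693 to 0.212) while its log2 fold change ranged from -0.93 to -0.88.

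Of 16 tested beta-oxidation genes DESeq2 called 3 lower, beside 1.92% of all tested genes, and 2 higher, beside 2.45%. The fallen ones were ech-6, an enoyl-CoA hydratase gene, and the thiolase genes kat-1 and acaa-2. ech-6 was at 112.4 ± 3.77 and 62.7 ± 4.15 CPM (-0.84, DESeq2 adjusted p = 1.50e-05), kat-1 at 87.1 ± 0.66 and 52.6 ± 1.60 CPM (-0.73, 0.000246) and acaa-2 at 178.8 ± 12.3 and 118.1 ± 10.1 CPM (-0.60, 0.00934). hacd-1, a hydroxyacyl-CoA dehydrogenase gene also on the fasting list, rose from 9.11 ± 2.33 to 20.4 ± 1.32 CPM (1.16, DESeq2 adjusted p = 0.00173). ech-1.1, a gene for a subunit of the trifunctional enzyme, rose from 0.65 ± 0.01 to 2.85 ± 0.86 CPM (2.13, DESeq2 adjusted p = 0.00833). In edgeR the adjusted p of these 5 genes was 0.0731 to 0.135. With 1 library left out, all 5 DESeq2 calls ended, except for ech-6 without GW1183 replicate 2 (adjusted p = 0.0229) and hacd-1 without N2 replicate 2 (0.0173).

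**Figure D5:**
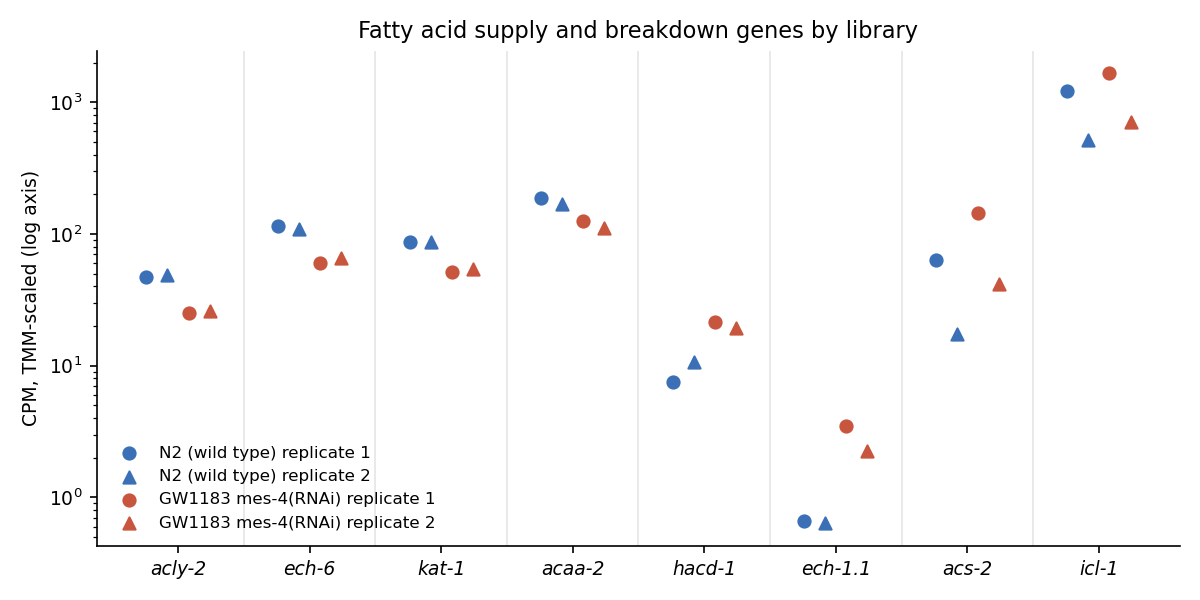
CPM by library on a log axis for acly-2, the 5 called beta-oxidation genes, and acs-2 and icl-1, with blue for N2, red for GW1183, circles for replicate 1 and triangles for replicate 2. The first 6 genes separate by group, and acs-2 and icl-1 separate by replicate number within each group.

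For each of the 10 genes, the tested gene with the most similar profile over the 4 libraries was found among genes of at least 5 CPM. Similarity was the root mean square distance of log2 CPM, each gene centred on its own mean. For fat-7 this gene was F10D2.10, at a distance of 0.45 and at 7.70, 15.9, 10.1 and 24.8 CPM. F10D2.10 is also the coding gene next to fat-7 on the same strand in WBcel235. For elo-5 it was R05H11.2 (0.0423), for elo-2 the glucuronosyltransferase gene ugt-16 (0.0113), and for fat-5 eppl-1 (0.0667), none of them next to its partner. For fat-4 it was fem-2, for fat-2 vha-14, for fat-3 T15B7.1, for fat-1 K07A1.10, for fat-6 C34D4.4 and for elo-1 vab-15, at distances from 0.00501 (fat-2) to 0.0141 (fat-1). With 4 libraries such small distances are common. Between 47 (fat-7) and 1310 (elo-1) genes lay at least as near to a gene as its closest fellow member did. Among the members, elo-2 and elo-5 were each other's nearest (0.14), and so were fat-2 and fat-3 (0.06).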

How the data were processed

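The authors deposited raw counts per gene with gene model lengths in bases, and log2 normalized values for the same genes. Per the submitters' processing notes the build was ce10. For aligner, counting program, annotation and strand, the sources used here give nothing. The deposited log2 values could be rebuilt from the counts, each multiplied by a library factor (0.887 to 1.07) and raised by 8 before the logarithm. Symbols matched 19182 of 20392 identifiers; neighbours and exon lengths came from the Ensembl annotation of WBcel235, whose coordinates are not printed because the build differs.

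Counts were filtered with filterByExpr and tested in R 4.3.3 with edgeR 4.0.16 (quasi-likelihood F-test, TMM factors 0.962 to 1.04, no block, Benjamini-Hochberg over 15008 genes, threshold 0.05). Each SE was obtained from the log2 fold change and the root of its F statistic. DESeq2 1.42.0 (Wald test) was the second test, and 291 of its adjusted p-values were NA. limma 3.58.1 was used in alternatives and matplotlib 3.10.9 for figures. Log2 CPM used a prior count of 2. Both tests were run on simulated counts with 200 changed genes. edgeR recovered 50% of the 2-fold and 98% of the 4-fold changes, and DESeq2 76% and 99%. Of the simulated calls, 9.2% in edgeR and 22.9% in DESeq2 were unchanged genes, above the threshold of 0.05 in both. Depth was 29081819 to 35106597 counts per library, and the biological coefficient of variation was 22.1%.

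The members and lists were chosen with earlier results of these data known, and p-values measure only the spread between these samples. Named outside the members were the called genes of each list, otherwise its 2 lowest edgeR p-values, plus the genes marked in the text.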

Additional observations from a re-analysis of the deposited data

How the results depend on the processing

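Over 12 alternatives without a block, fat-1, fat-2, fat-3, fat-4 and fat-6 kept a negative log2 fold change (fat-4 -0.39 to -0.29) and no member was called. The edgeR count over all genes, 0 as reported, was 128 without a filter, 2 when only genes at 5 CPM in at least 2 libraries were kept, and 655 with DESeq2. Without single libraries it was 0 to 27, and the DESeq2 count was 151 to 211. Log2 fold changes that turned did so without single libraries, where the ranges in edgeR and DESeq2 were -0.32 to 0.050 and -0.33 to 0.047 for elo-1, -0.45 to 0.32 and -0.46 to 0.32 for elo-2, -0.40 to 0.57 in both for elo-5, -0.39 to 0.83 in both for fat-5, -1.203 to 1.37 and -1.21 to 1.36 for fat-7, and -0.29 to 1.19 and -0.29 to 1.18 for icl-1. In these fits 1 group has 1 library, assumed to vary like the other group.

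With the replicate number as a replicate block, edgeR called 3047 genes (20.3%) and DESeq2 1387 (9.24%). Of the members edgeR then called 2, fat-1 (-0.34, adjusted p = 0.0410) and fat-4 (-0.34, 0.0189), and DESeq2 called 1, fat-4 (adjusted p = 0.0158). Across genes the replicate differences of both groups correlated at 0.646, but no label ties the numbers to a shared day or batch. The cause of these differences was not tested. Depth limits fat-5 and fat-7 (79 to 500 counts) more than the other members (6575 to 24147 counts).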

Other observations

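Genes that use or store the products of the desaturases were also read. Of 6 genes for oxygenation of polyunsaturated fatty acids, 5 were above 0 and 1 below, beside 48.5% of all tested genes below 0. Of the 6, 0 were called by edgeR or DESeq2. Without overlap 3 were higher and 1 lower, beside 22.7% and 22.2% of all tested genes. The lower one, emb-8, was the most abundant of the 6, at 236.3 ± 21.4 and 186.7 ± 13.7 CPM (SD, n = 2, log2 fold change -0.34, edgeR adjusted p = 0.321). The means of the summed level of the 6 genes differed by -12.6%. The cytochrome P450 gene cyp-29A3 was at 2.58 and 2.42 CPM in N2 and at 6.10 and 4.45 CPM in GW1183 larvae (log2 fold change 1.07, SE 0.26, edgeR adjusted p = 0.176, DESeq2 adjusted p = 0.108). The epoxide hydrolase gene ceeh-1 was at 11.9 and 12.5 CPM and at 17.1 and 17.9 CPM (0.52, SE 0.14, edgeR adjusted p = 0.198).

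Of 10 fat storage genes 0 were called and 7 were below 0, beside 48.5% of all tested genes. Without overlap 4 were lower, beside 22.2% of all tested genes, and 1 was higher, beside 22.7%. The lipase gene atgl-1 was at 95.7 ± 2.00 and 79.8 ± 4.74 CPM (SD, n = 2; log2 fold change -0.26, edgeR adjusted p = 0.373), and the lipin gene lpin-1 at 235.4 ± 29.9 and 196.6 ± 21.1 CPM (-0.26, edgeR adjusted p = 0.507). Germline markers summed to 119.4 and 116.7 CPM in N2 and 123.5 and 132.6 CPM in GW1183 larvae, with 0 of 8 called. Of these 8 markers 7 did not overlap between the groups, beside 44.9% of all tested genes, and they went both ways, with 3 higher and 4 lower in GW1183 larvae.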
